A study of Mus musculus with 60 samples.

Results

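Microglia are the resident macrophages of the brain, and the 30 genes described here are markers by which they are commonly recognised. The members are the rows of the deposited expression table whose Ensembl identifier carries 1 of 30 listed symbols in GENCODE release M21. All 30 symbols were found, each in 1 row, among the 18088 genes of the table, and all 30 had values high enough to be tested. RNA came from the prefrontal cortex of C57BL/6J mice aged 25 days. One genotype was wild type (WT); the other, Grin2b+/C456Y (Het), carried on one chromosome a missense allele of Grin2b, the gene for an NMDA receptor subunit. Pups of both genotypes and both sexes received vehicle, the serotonin reuptake inhibitor fluoxetine or the mood stabiliser lithium through maternal milk from day 3 to day 24, a span of 3 weeks. Each of the 6 combinations of genotype and treatment, called groups here, held 10 libraries, 5 from females and 5 from males, which gave 60 in all. The labels do not say whether replicates were separate animals or litters, so p-values measure the spread between these samples, which may be partly technical. Because the drugs came through the dam, littermates may share a treatment, and the fits held no term for litter. Independent units may thus be fewer than libraries, and differences between treatments may include differences between litters. Because the allele is missense, the level of Grin2b RNA is no check of the genotype labels.

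Microglia enter the brain from the embryonic yolk sac and depend on signalling through Csf1r for their survival. In the resting brain they survey their surroundings through receptors for fractalkine and purines, and they are the main source of the complement protein C1q. C1q tags synapses, and microglia take up tagged synapses while circuits mature in early postnatal life. Trem2 and its adaptor Tyrobp form an activating receptor that senses lipids and debris. The transcription factors Spi1 (PU.1) and Irf8 are needed to form microglia.

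Values are normalised read counts, which are reads per gene divided by 1 scaling factor per library. The libraries held 23901635 to 37769417 reads, and no 2 of them were identical. Single members were covered by 34 reads (Spi1, the lowest library) to 3435 reads (Csf1r, the highest library). Some libraries stood apart. In 9 of the 10 Het fluoxetine libraries, and in WT vehicle female 2, the mean log2 level of 16 pseudogenes was at most 3.15, against at least 4.60 in the other libraries. These pseudogenes were picked as called in Het against WT in fluoxetine with a log2 fold change beyond 2 in size. The cut was set at the widest gap between libraries. The low level in most Het fluoxetine libraries thus follows from the choice and is no separate evidence that they differ. Across 17799 genes, the correlation of a library's deviations from the mean with GC content ran from -0.31 to -0.10 in the Het fluoxetine libraries. It was -0.49 in WT lithium male 5, -0.36 in WT vehicle female 2, 0.23 in WT lithium female 5 and between -0.22 and 0.34 in the remaining 47 libraries. By this measure WT lithium female 5 lay within the range of those 47 and did not stand apart. The counts for lithium in WT are also given without WT lithium female 5, WT lithium male 5 and WT vehicle female 2, a choice made with earlier results of these data known.

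The 30 markers differed widely in level. Per kilobase of the principal transcript, and as a median over all 60 libraries, the lysosomal protease Ctss was highest at 1037 normalised read counts. The C1q chains C1qa (856), C1qb (840) and C1qc (779) followed, then Csf1r (553), P2ry12 (492) and Tyrobp (469). The transcription factors stood at the other end with Irf8 at 46.3 and Spi1 at 43.7, beside the sialic acid receptor Cd33 at 45.9. The coefficient of variation over all libraries ran from 10.7% (Laptm5) to 18.7% (Gpr34). That spread is over libraries and does not measure the difference between genes in the same libraries. The order of members with close levels, such as the 3 C1q chains or Irf8, Cd33 and Spi1, was not tested. No member was at 0 in any library, so all were detected in this tissue. Detection in bulk tissue does not show which cells the RNA came from.

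Promoter windows of 300 bases, 250 before the start and 50 after it, were available in the RefSeq table (GRCm38.p6) for 23 of the 30 members. They were searched on both strands for GAGGAAG, the core of PU.1 binding sites (reverse complement CTTCCTC). The motif stood in 13 of the 23 members (56.5%) and in 15.4% of 27025 genes with such a window. Fcgr3 and Irf8 have 2 windows each and were counted once. The shorter GAGGAA, which lies within the first motif, was in 17 of the 23 members (73.9%) and in 31.3% of genes. These shares are a description and were not tested. A match is a description of the letters and not of binding. The 250 bases before the start are shown for C1qc (chr4:136892915-136893164, minus strand), Trem2 (chr17:48346151-48346400, plus), Itgam (chr7:128062390-128062639, plus), Fcrls (chr3:87263525-87263774, minus) and Laptm5 (chr4:130913066-130913315, plus), which are among the members that were lower in WT lithium. They are also shown for Inpp5d (chr1:87620062-87620311, plus), which holds the same motif and had no such difference. Of the other windowed members lower in WT lithium, C1qb, Cx3cr1, P2ry12, Fcer1g, Olfml3, Ly86 and Irf8 held no match. Cd53, Ctss and Ltc4s held none wholly before the start. Of members not called there, Fcgr3, P2ry13, Hpgds and Cd33 held a match before the start, and Siglech, Cd68 and Aif1 held none. A link between the motif and the lithium difference was not tested. Capitals mark GAGGAAG or its reverse complement, which begins at -194 from the start in C1qc, -41 in Trem2, -84 in Itgam, -144 in Fcrls, -39 in Laptm5 and -20 in Inpp5d. Starts here are those of RefSeq. In GENCODE M21 the gene begins further upstream for C1qc (136893065), Fcrls (87263738) and Laptm5 (130913125). The marked motifs of Fcrls and Laptm5 therefore lie within the GENCODE gene.
C1qc: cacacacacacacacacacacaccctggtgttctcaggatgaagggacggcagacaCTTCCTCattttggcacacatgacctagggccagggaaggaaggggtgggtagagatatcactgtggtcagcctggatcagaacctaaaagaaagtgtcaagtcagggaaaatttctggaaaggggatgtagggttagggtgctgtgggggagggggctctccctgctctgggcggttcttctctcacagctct
Trem2: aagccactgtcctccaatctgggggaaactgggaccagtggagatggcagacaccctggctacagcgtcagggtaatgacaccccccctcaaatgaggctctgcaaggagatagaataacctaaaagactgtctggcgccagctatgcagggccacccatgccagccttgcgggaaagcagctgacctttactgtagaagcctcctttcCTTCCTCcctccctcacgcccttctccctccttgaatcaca
Itgam: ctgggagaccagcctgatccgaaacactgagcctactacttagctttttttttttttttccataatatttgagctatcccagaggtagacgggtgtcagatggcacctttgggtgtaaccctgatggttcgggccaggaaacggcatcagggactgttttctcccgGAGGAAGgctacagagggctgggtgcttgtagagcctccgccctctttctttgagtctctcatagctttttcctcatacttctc
Fcrls: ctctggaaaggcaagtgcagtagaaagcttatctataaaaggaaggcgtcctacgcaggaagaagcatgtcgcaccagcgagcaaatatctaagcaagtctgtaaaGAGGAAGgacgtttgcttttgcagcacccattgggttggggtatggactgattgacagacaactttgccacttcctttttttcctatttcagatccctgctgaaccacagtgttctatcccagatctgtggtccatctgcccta
Laptm5: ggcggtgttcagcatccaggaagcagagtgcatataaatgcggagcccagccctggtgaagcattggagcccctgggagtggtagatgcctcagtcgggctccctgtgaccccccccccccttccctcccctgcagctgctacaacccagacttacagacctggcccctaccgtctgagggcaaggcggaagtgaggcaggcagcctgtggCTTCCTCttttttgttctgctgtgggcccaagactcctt
Inpp5d: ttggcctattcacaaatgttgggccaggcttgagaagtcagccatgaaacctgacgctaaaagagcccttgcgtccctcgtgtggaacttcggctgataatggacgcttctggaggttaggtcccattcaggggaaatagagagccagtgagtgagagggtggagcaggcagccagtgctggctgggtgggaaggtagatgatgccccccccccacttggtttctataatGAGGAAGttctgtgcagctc

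Lithium against vehicle in WT gave the clearest difference. In WT mice 22 of the 30 markers were lower with lithium and none was higher, at an adjusted p below 0.05 over all 17810 genes tested. The fitted change was below 0 for all 30 markers, with a median log2 fold change of -0.27, while the median over all genes was 0.0039. Over all genes 9.87% were lower at that threshold and 19.2% differed in either direction. For 12 members all 10 lithium libraries were below the vehicle mean of their sex, a pattern seen in 3.82% of all genes. The ranges of the 2 groups overlapped for every member, while 0.124% of all genes had a lithium range wholly below the vehicle range. In these bulk samples, fewer microglia and less of each RNA per microglial cell cannot be told apart. Lists of endothelial, pericyte and meningeal genes were lower as well, as given below, and their part in the marker result was not tested.

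**Figure D1:**
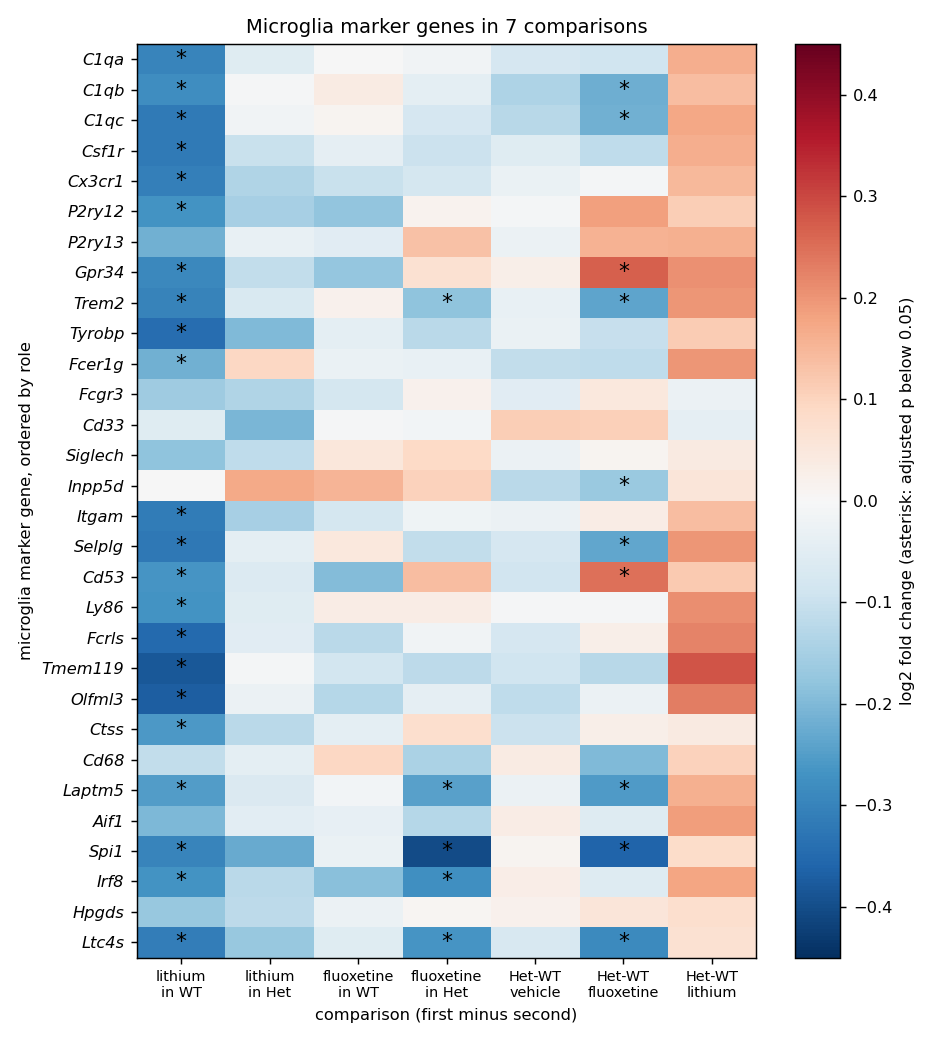
Log2 fold change (colour) of each marker (rows, ordered by role) in 7 comparisons (columns), from the limma fit to 60 libraries; asterisks mark an adjusted p below 0.05. The lithium column in WT lies below 0 throughout, with Inpp5d nearest to 0, and has 22 asterisks, and the lithium column in Het has none.

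The summed normalised read count of the 30 markers showed the same difference library by library. In WT vehicle it ran from 17262 to 20373 with a median of 18842 (18748 ± 1002, mean ± SD, n = 10). In WT lithium it ran from 12399 to 17518 with a median of 15282 (15571 ± 1486, n = 10). The ranges met at their ends, where WT lithium female 2 and WT lithium male 2 lay above the lowest WT vehicle library, female 3. In each WT lithium library, between 22 and 30 of the 30 markers lay below the vehicle mean of that sex. WT lithium female 5 was the lowest of all 60 libraries for 15 members and WT lithium male 5 for 7. Among the 6 groups, WT lithium had the lowest mean for 23 of the 30 members.

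**Figure D2:**
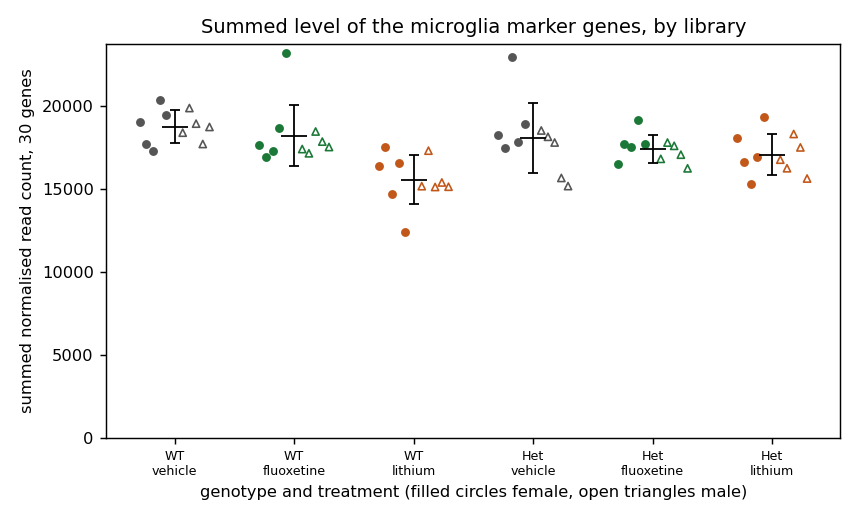
Summed normalised read count of the 30 markers (vertical axis, from 0) in each of the 60 libraries by genotype and treatment; filled circles are females, open triangles males, and bars mean ± SD of 10 libraries. WT lithium lies lowest (mean 15571), and 1 female each of WT fluoxetine (23207) and Het vehicle (22969) lies highest.

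The 3 chains of complement C1q, encoded side by side on chromosome 4, were all lower with lithium in WT. C1qc (chr4:136889804-136893065, GRCm38) ran from 807 to 1175 with a median of 1077 in WT vehicle, and from 697 to 953 with a median of 835 in WT lithium. Most lithium libraries lay below most vehicle libraries, and all 10 were below the vehicle mean of their sex. Its log2 fold change was -0.32 (SE 0.06, adjusted p = 0.00024). C1qa ran from 866 to 1043 (median 942) in vehicle and from 707 to 876 (median 765) in lithium, with a change of -0.30 (SE 0.06, adjusted p = 0.000267). Only the top of its lithium range reached the vehicle range. For C1qb the means were 831 ± 105 in lithium and 1004 ± 78 in vehicle, a change of -0.28 (adjusted p = 0.000672).

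Of the 5 receptors for colony-stimulating factor, fractalkine and purines, 4 were lower. Csf1r, the receptor that microglia need for survival, ran from 2397 to 3234 (median 2853) in WT vehicle and from 1891 to 2659 (median 2219) in WT lithium. Every lithium library was below the vehicle mean of its sex, and the change was -0.32 (SE 0.06, adjusted p = 0.000365). The fractalkine receptor Cx3cr1 had means of 1411 ± 101 in vehicle and 1149.8 ± 167 in lithium, a change of -0.31 (adjusted p = 0.000847). The purine receptor P2ry12, which steers microglial processes toward ATP, ran from 1065 to 1497 (median 1209) in vehicle and from 552 to 1488 (median 1037) in lithium. The lithium libraries were more widely spread, with 8 of 10 below the vehicle mean of their sex, and the change was -0.27 (SE 0.09, adjusted p = 0.0294). Gpr34, a receptor for a lysophospholipid, changed by -0.29 (adjusted p = 0.0388). P2ry13, whose gene neighbours that of P2ry12, did not pass, with a change of -0.22 (95% interval -0.38 to -0.05, adjusted p = 0.0544).

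Among 7 genes of activating and inhibitory receptor signalling, Trem2, Tyrobp and Fcer1g were lower and the other 4 did not pass. Trem2 ran from 256 to 325 (median 309.6) in WT vehicle and from 167 to 289 (median 252) in WT lithium. All 10 lithium libraries were below the vehicle mean of their sex, with a change of -0.30 (SE 0.06, adjusted p = 0.000666). Tyrobp, the adaptor that carries the Trem2 signal, had means of 289 ± 29.4 in vehicle and 228 ± 27.2 in lithium, a change of -0.34 (adjusted p = 0.000839). Fcer1g, the shared signalling chain of Fc receptors, changed by -0.21 (adjusted p = 0.0343). Siglech changed by -0.18 (adjusted p = 0.0561), the Fc receptor Fcgr3 by -0.16 (adjusted p = 0.0755) and the inhibitory receptor Cd33 by -0.05 (adjusted p = 0.673). Inpp5d, the lipid phosphatase SHIP1 that dampens this signalling, ran from 398 to 559 (median 473) in vehicle and from 432 to 570.5 (median 462) in lithium. Its groups covered the same range, with a change of -0.0034 (95% interval -0.13 to 0.12, adjusted p = 0.978).

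All 5 adhesion and membrane genes were lower. Fcrls, an Fc receptor-like gene used as a microglial marker in mice, ran from 864 to 1082 (median 971) in WT vehicle and from 393 to 899 (median 836) in WT lithium. All 10 lithium libraries were below the vehicle mean of their sex, with females 5 (393) and 3 (618) far below the others, and the change was -0.35 (SE 0.08, adjusted p = 0.00101). Itgam, the integrin chain CD11b of complement receptor 3, changed by -0.31 (adjusted p = 0.00235) and the selectin ligand Selplg by -0.32 (adjusted p = 0.00068). Ly86, a partner of a Toll-like receptor relative, changed by -0.27 (adjusted p = 0.0168) and the tetraspanin Cd53 by -0.27 (adjusted p = 0.0255).

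Tmem119 and Olfml3, markers of resting microglia that set them apart from blood-derived macrophages, had the most negative fold changes of the list. Tmem119 ran from 526.03 to 749.6 (median 661) in WT vehicle and from 333 to 623 (median 507) in WT lithium. All 10 lithium libraries were below the vehicle mean of their sex, and the change was -0.38 (SE 0.08, 95% interval -0.54 to -0.22, adjusted p = 0.00047). Olfml3 ran from 589 to 684 (median 624) in vehicle and from 254 to 615 (median 537) in lithium, a change of -0.37 (SE 0.08, adjusted p = 0.000462). Its vehicle values were tightly grouped, and its lithium values reached further down.

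Of the lysosomal genes, Ctss (-0.26, adjusted p = 0.00305) and Laptm5 (-0.25, adjusted p = 0.000802) were lower. Cd68, a glycoprotein of lysosomes in phagocytes, was not called, with a change of -0.11 (95% interval -0.28 to 0.06, adjusted p = 0.395). Aif1, which encodes the stain marker IBA1, ran from 86.3 to 114 (median 105) in WT vehicle and from 65.5 to 127 (median 89.5) in WT lithium. The lithium range enclosed the vehicle range, and the change of -0.20 (SE 0.09) did not pass (adjusted p = 0.113). Both transcription factors were lower: Spi1 had means of 98.5 ± 12.6 in vehicle and 81.8 ± 18.4 in lithium, a change of -0.30 (SE 0.11, adjusted p = 0.0379). Irf8 changed by -0.27 (adjusted p = 0.0208), with all 10 lithium libraries below the vehicle mean of their sex. Of the enzymes of eicosanoid synthesis, the leukotriene synthase Ltc4s was lower (-0.31, adjusted p = 0.0122), and the prostaglandin D synthase Hpgds was not called (-0.17, adjusted p = 0.136).

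**Figure D3:**
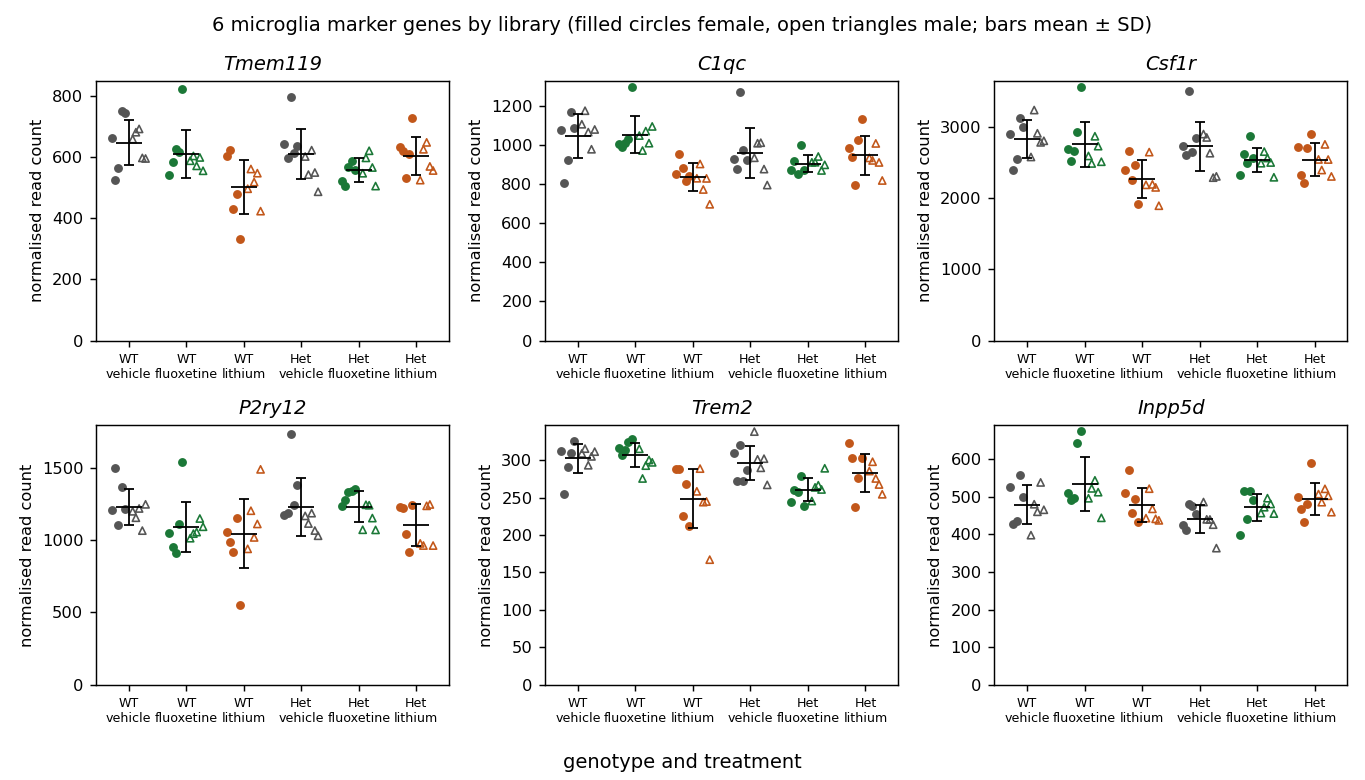
Normalised read counts (vertical axes, from 0) of Tmem119, C1qc, Csf1r, P2ry12, Trem2 and Inpp5d in each library by genotype and treatment; filled circles are females, open triangles males, and bars mean ± SD of 10 libraries. WT lithium libraries lie low for Tmem119, C1qc, Csf1r and Trem2, spread widely for P2ry12, and cover the vehicle range for Inpp5d.

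The calls did not rest equally on all libraries. The counts in this paragraph are given without the share over all genes in the same fit. A change in a count may therefore go with a change in calls over the whole table. With WT lithium female 5, WT lithium male 5 and WT vehicle female 2 left out, 18 markers were lower and the median change was -0.24. Of the 22 calls 17 remained, P2ry12, Gpr34, Fcer1g, Cd53 and Spi1 were lost, and Fcgr3 was gained. When each of the 20 libraries was left out in turn, between 17 and 25 markers were lower. C1qa, C1qb, C1qc, Csf1r, Cx3cr1, Trem2, Tyrobp, Itgam, Selplg, Ly86, Fcrls, Tmem119, Olfml3, Ctss, Laptm5 and Ltc4s passed in all 20 of those fits. P2ry12 passed in 15 of them, Irf8 in 17, Cd53 in 18, Fcer1g in 13, Spi1 in 12 and Gpr34 in 10, with adjusted p-values up to 0.0995, 0.0575, 0.0645, 0.0811, 0.151 and 0.126 respectively. WT lithium female 5 and WT lithium male 1 were each among the libraries without which P2ry12, Cd53, Fcer1g, Spi1 and Gpr34 were lost. P2ry12 was also lost without WT lithium male 3 or WT vehicle females 2 or 4, and Fcer1g without WT lithium female 3, WT vehicle female 1 or WT vehicle males 1, 2 or 3. Spi1 was also lost without WT lithium female 3, WT lithium male 5, WT vehicle females 1 or 4, or WT vehicle males 1 or 3. Gpr34 was also lost without WT lithium female 3, WT lithium males 3 or 4, WT vehicle females 2 or 4, or WT vehicle males 1, 2 or 3. Irf8 was lost without WT lithium female 4, WT vehicle female 4 or WT vehicle male 2. A fit to the 2 WT groups alone, which estimates the spread from 20 libraries, called 13 of the 22 and lost P2ry12, Gpr34, Fcer1g, Itgam, Cd53, Ly86, Spi1, Irf8 and Ltc4s.

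Within a sex, 13 markers were lower with lithium in WT females and 15 in WT males, where 5.73% and 10.3% of all genes were lower. C1qa, Csf1r, Tyrobp, Tmem119 and Olfml3 passed in both sexes. Without the 3 libraries, an alternative chosen after seeing the data, 5 markers were lower in females (Tyrobp, Cd53, Fcrls, Tmem119 and Olfml3) and 10 in males, where 2.07% and 3.38% of all genes were lower, and Olfml3 alone passed in both. The difference between the sexes itself passed for Cd53 and Gpr34 among the members, and for 9.64% of all genes. Cd53 was at 217, 264, 230.0, 259 and 233 in the 5 WT vehicle females and at 153, 203, 148, 174 and 125 in the 5 WT lithium females. In males it was at 224, 215, 216, 214 and 196 with vehicle and at 191, 282, 194, 194 and 267 with lithium. The female groups did not overlap, while the male lithium group held values both below and above all of its controls. The change was -0.59 in females and 0.06 in males, and the interaction was -0.65 (SE 0.17, adjusted p = 0.0246). For Gpr34 the change was -0.61 in females and 0.03 in males, with an interaction of -0.63 (SE 0.20, adjusted p = 0.0425). Neither interaction remained when any of WT lithium female 5, WT lithium male 5 or WT vehicle female 2 was left out, or all 3 together. Both were also lost in a fit to the WT groups alone (adjusted p = 0.247 for Cd53 and 0.248 for Gpr34), with the GC correction described below (0.228 and 0.383) and with terms for libraries low in pseudogenes (0.0515 and 0.0880) or with no Rps6-ps4 read (0.0617 and 0.106). Gpr34 was lost with the replicate number as a block (adjusted p = 0.0502) and in 8 of 20 fits that each left out 1 library, among them those without WT lithium female 3, WT vehicle female 4 or WT vehicle males 1, 2 or 4.

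Lithium in Het called no marker at the same threshold, where 0.983% of all genes passed. The change was below 0 for 28 of the 30 members with a median of -0.067, and 6 had an unadjusted p below 0.05, as did 13.8% of all genes. edgeR on the recovered reads also called none. The members with the smallest p were Inpp5d (0.17, adjusted p = 0.186), Tyrobp (-0.20, adjusted p = 0.189) and Cd33 (-0.21, adjusted p = 0.204). Tmem119 ran from 487 to 798 (median 608) in Het vehicle and from 525 to 727 (median 614) in Het lithium. The groups covered the same range, and the change was -0.0072 (95% interval -0.16 to 0.15). C1qc ran from 795 to 1273 (median 933) in Het vehicle and from 795 to 1134 (median 937) in Het lithium, a change of -0.02 (95% interval -0.14 to 0.11). Csf1r changed by -0.10 (-0.23 to 0.03), P2ry12 by -0.15 (-0.33 to 0.03), Trem2 by -0.07 (-0.19 to 0.06), C1qa by -0.05 (-0.17 to 0.06), Aif1 by -0.05 (-0.23 to 0.14) and Spi1 by -0.23 (-0.44 to -0.02). Het lithium libraries differed among themselves, with 7 to 30 members below the vehicle mean of their genotype and sex.

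**Figure D4:**
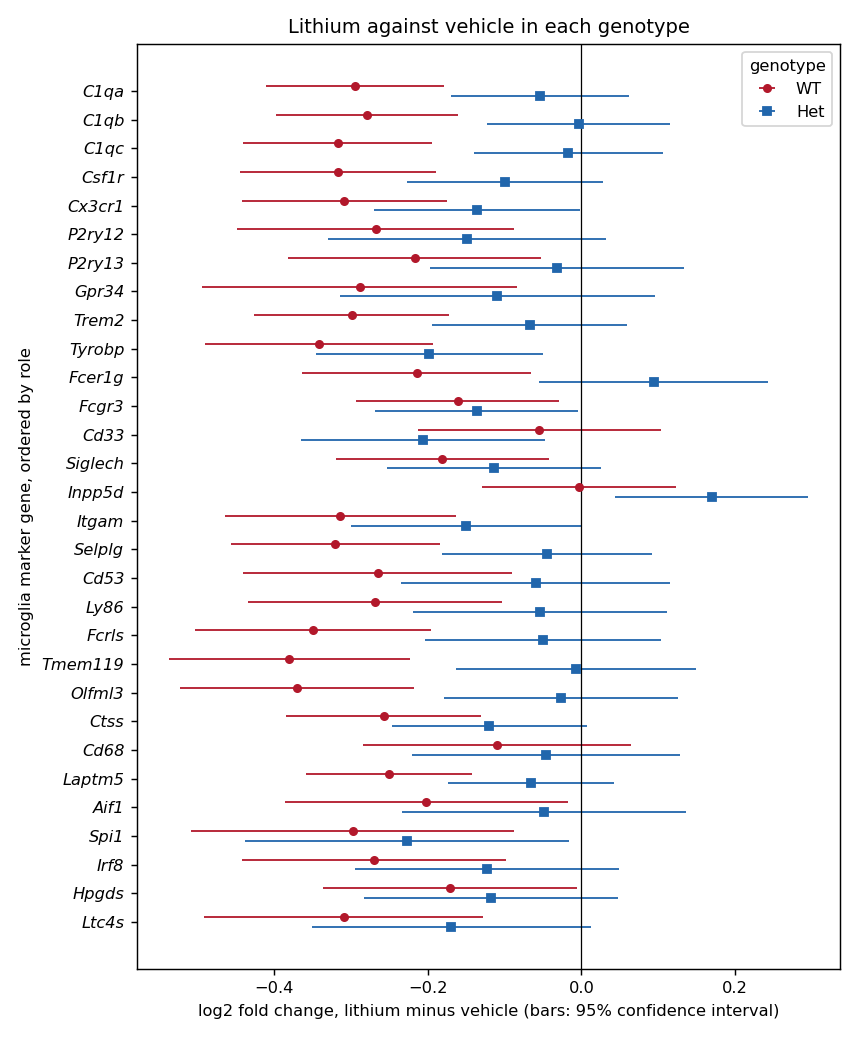
Log2 fold change of lithium minus vehicle (horizontal axis) for each marker in WT (circles) and Het (squares), with bars for the 95% confidence interval. In WT 22 intervals go with a call below 0, and in Het most intervals span 0.

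Whether lithium acted differently in the 2 genotypes was tested directly. The change in Het minus the change in WT was above 0 for 29 of the 30 members with a median of 0.18, and none passed (0.0674% of all genes did). An unadjusted p below 0.05 was found for 11 members and 11.1% of all genes, and edgeR on the recovered reads called none either. C1qc had an interaction of 0.30 (95% interval 0.13 to 0.47, adjusted p = 0.155), Tmem119 of 0.37 (0.15 to 0.59, adjusted p = 0.168) and C1qb of 0.28 (0.11 to 0.44, adjusted p = 0.182). For Trem2 it was 0.23 (adjusted p = 0.307), for Csf1r 0.22 (adjusted p = 0.346), for P2ry12 0.12 (adjusted p = 0.79) and for Spi1 0.07 (adjusted p = 0.907). A smaller response in Het is thus not established for any member, although the WT response passed and the Het response did not. C1qa was at 0.24 (adjusted p = 0.235) and Aif1 at 0.15 (adjusted p = 0.719). Of 40 fits that each left out 1 library, C1qc passed in the 1 without WT vehicle female 2 (adjusted p = 0.0489), and no member passed without the 3 libraries together.

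The genotypes were then compared within each treatment; these comparisons share groups with those above, so their values are given side by side and not as separate evidence. In vehicle no marker differed between Het and WT, where 0.59% of all genes passed. The change was below 0 for 23 members with a median of -0.03. The smallest p-values were those of C1qb (-0.14, adjusted p = 0.388), C1qc (-0.13, adjusted p = 0.501) and Inpp5d (-0.12, adjusted p = 0.547). Tmem119 (-0.09), C1qa (-0.08), Csf1r (-0.06), Trem2 (-0.03), P2ry12 (-0.0086), Spi1 (0.01) and Aif1 (0.03) did not pass. The 95% intervals of all 30 members lay between -0.27 and 0.27. edgeR on the recovered reads called none, and 2 members had an unadjusted p below 0.05, against 9.75% of all genes. In lithium no marker passed either, where 0.0281% of all genes did, but 28 of 30 were higher in Het than in WT, with a median of 0.15, and 16 had an unadjusted p below 0.05, against 11.4% of all genes. Tmem119 was at 604 ± 61.4 in Het lithium and 502 ± 88.8 in WT lithium, a difference of 0.28 (adjusted p = 0.165) with 10 of 10 Het libraries above the WT mean of their sex, as in 1.02% of all genes. Trem2 differed by 0.20 (adjusted p = 0.216) and Olfml3 by 0.23 (adjusted p = 0.231). Aif1 (0.19), C1qa (0.17), Csf1r (0.16), P2ry12 (0.11) and Spi1 (0.08) did not pass. Tmem119 passed without WT lithium female 1 or without WT lithium female 2.

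Fluoxetine in WT called no marker, where 8.43% of all genes passed. The change was below 0 for 22 members, with a median of -0.04, 3 had an unadjusted p below 0.05 against 21.8% of all genes, and edgeR on the recovered reads called none. Inpp5d changed by 0.15 (adjusted p = 0.128), Cd53 by -0.20 (adjusted p = 0.167) and Irf8 by -0.19 (adjusted p = 0.187). WT fluoxetine female 5 had the highest value of all 60 libraries for 15 members, and Cd53 passed without it (1 marker lower). Without the 3 WT libraries left out above, Olfml3 passed instead (-0.14, adjusted p = 0.0406). Csf1r (-0.04), C1qa (-0.0033), Trem2 (0.02), Tmem119 (-0.08), Spi1 (-0.03) and Aif1 (-0.04) did not pass, and P2ry12 changed by -0.18 (SE 0.09, adjusted p = 0.244).

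Fluoxetine in Het called 5 markers, all lower, where 39.0% of all genes passed and 19.9% were lower. The members' share does not exceed that background. Laptm5, a lysosomal membrane protein, was at 908 ± 47.2 with fluoxetine and 1078 ± 102 with vehicle, a change of -0.24 (SE 0.05, adjusted p = 0.000342). Spi1 ran from 63.9 to 82.2 (median 75.5) with fluoxetine and from 80.8 to 114 (median 98.4) with vehicle, and the groups barely met, with a change of -0.40 (SE 0.11, adjusted p = 0.00196). Irf8 changed by -0.28 (adjusted p = 0.00856), Ltc4s by -0.27 (adjusted p = 0.0163) and Trem2 by -0.18 (adjusted p = 0.0199). All 10 fluoxetine libraries were below the vehicle mean of their sex for Laptm5, Spi1, Ltc4s and Trem2, a pattern seen in 15.1% of all genes. Csf1r (-0.10), C1qa (-0.01), P2ry12 (0.02), Tmem119 (-0.12) and Aif1 (-0.13) did not pass. Ltc4s was lost without Het vehicle female 3 (adjusted p = 0.0509).

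Het against WT in fluoxetine called 10 markers, where 39.5% of all genes passed, 19.6% higher and 19.9% lower. Over both directions together the members' share does not exceed the background here either. The share of members that were lower, 8 in number, was above that of all genes, and the share higher was below it. Whether these shares differ from the background was not tested. Laptm5 (-0.26), Trem2 (-0.24), C1qb (-0.22), C1qc (-0.22), Selplg (-0.23), Spi1 (-0.36), Ltc4s (-0.29) and Inpp5d (-0.17) were lower in Het, and Cd53 (0.25) and Gpr34 (0.27) were higher. C1qa (-0.09), Csf1r (-0.11), Tmem119 (-0.13), Aif1 (-0.06) and P2ry12 (0.18) did not pass. Laptm5 ran from 841 to 1007 in Het fluoxetine and from 1027 to 1206 in WT fluoxetine, and Spi1 from 63.9 to 82.18 and from 82.24 to 122. For both, the ranges of the groups did not overlap, which was so for 1.66% of all genes in this direction. The longest transcripts of Cd53 and Gpr34 have a GC content of 40.0% and 37.1%, and those of the 8 lower members of 49.8% to 61.0%. When each library's deviations along GC content were subtracted, Trem2 (-0.18, adjusted p = 0.0364) and Selplg (-0.20, adjusted p = 0.0353) remained of the 10. A term for the libraries low in pseudogenes, which were picked from this same comparison, covers 9 of the 10 Het fluoxetine libraries. A term for the 11 libraries with no Rps6-ps4 read also covers 9 of them. Both terms nearly coincide with the Het fluoxetine group, so a loss of calls under them was close to fixed in advance. With either term none of the 10 calls passed, which is no separate check. Gpr34 turned to -0.02 under the pseudogene term. Fluoxetine in Het gave 3 calls after the GC correction, with Irf8 lower (-0.24) and C1qa (0.19) and Inpp5d (0.18) higher, and none with either term. Whatever sets those libraries apart and the effect of fluoxetine in Het cannot be told apart here.

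The genotype by fluoxetine interaction passed for Laptm5 and Cd53, where 24.0% of all genes passed. Laptm5 fell further in Het (-0.24 against -0.01 in WT; interaction -0.23, SE 0.08, adjusted p = 0.0233), and Cd53 went the other way (0.14 against -0.20; interaction 0.34, SE 0.12, adjusted p = 0.0396). Both were lost after the GC correction and with either library term. With edgeR on the recovered reads Cd53 was lost (adjusted p = 0.0586) and Spi1 passed (-0.38, adjusted p = 0.0489), against an adjusted p of 0.0594 for Spi1 with limma. Trem2 (-0.20), P2ry12 (0.19), Aif1 (-0.09), Csf1r (-0.06), Tmem119 (-0.04) and C1qa (-0.01) did not pass. Cd53 passed in 24 of 40 fits that each left out 1 library, with an adjusted p up to 0.0685, and Laptm5 in all 40.

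Averaged over the 6 groups, no marker differed between females and males, where 0.107% of all genes passed. The change was above 0 for 29 of 30 members, with a median of 0.05 and an unadjusted p below 0.05 for Cd68 and Fcgr3, against 4.02% of all genes. Cd68 was higher in females by 0.13 (adjusted p = 0.999), Fcgr3 by 0.09 and Hpgds by 0.09. Spi1 (0.09), Csf1r (0.06), P2ry12 (0.05), Tmem119 (0.05), C1qa (0.02), Trem2 (0.02) and Aif1 (0.0083) did not pass. edgeR on the recovered reads called none.

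Lists of other myeloid genes and of the other cells of the cortex gave the setting of the WT lithium difference. In that comparison 9.87% of all genes were lower and 9.34% were higher. Of 46 other microglial and myeloid genes 26 were lower and none higher, with a median of -0.23; among them the signalling kinase Syk changed by -0.41, the GTPase regulator Arhgap30 by -0.39, Rgs10 by -0.26 and the integrin chain Itgb5 by -0.26. Of 19 genes of activated and disease-associated microglia 7 were lower (Cd9 -0.36, Axl -0.21, Ccl6 -0.49, Cd63 -0.27) and Gpnmb was higher (0.57, adjusted p = 0.0474). Of 8 cytokine and chemokine genes Il1b alone passed, higher by 0.76 (adjusted p = 0.0132), at means of 8.58 ± 3.37 with lithium and 4.78 ± 2.05 with vehicle. Of 11 ligands of microglial receptors Csf1, a ligand of Csf1r, was lower (-0.16, adjusted p = 0.0326). The single calls of Il1b and Csf1 stand near the shares over all genes and are no result about their lists. Of 12 genes of macrophages at the vessels and borders of the brain Cbr2 (-0.62), Stab1 (-0.26) and Ms4a7 (-0.81) were lower, and their summed level was 1944 ± 266 with lithium against 2208 ± 251 with vehicle.

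Genes of other cell types were lower in WT lithium as well, where 9.87% of all genes were lower. Calls below 0 were made for 9 of 12 endothelial genes (median -0.33; Cldn5 -0.64, Cdh5 -0.46), 9 of 10 pericyte and smooth muscle genes (median -0.40; Acta2 -0.70, Vtn -0.51) and 9 of 10 meningeal fibroblast genes (median -0.42; Col1a2 -0.55). They were also made for 6 of 10 genes of oligodendrocyte precursors (median -0.34; Gpr17 -0.55) and 7 of 14 astrocyte genes (median -0.18; S100b -0.40). None of 13 oligodendrocyte genes passed (median -0.29), nor any of 12 neuronal genes (median 0.05) or 6 erythrocyte genes (median 0.09). Blood monocyte and neutrophil genes summed to between 6.64 and 37.98 in WT lithium and between 13.1 and 35.5 in WT vehicle, over the 2 of 10 listed genes that could be tested, and neither passed. The 4 tested genes of T, B and NK cells, of 12 listed, summed to between 32.6 and 434 in WT lithium and between 37.9 and 109 in WT vehicle, and none passed. The part of these other cells in the marker result was not tested. Without the 3 libraries the lower calls were 19 of 46 for other microglial and myeloid genes, 7 of 19 for disease-associated genes, 2 of 12 for border macrophages, 8 of 12 for endothelium, 7 of 10 for pericytes and smooth muscle and 8 of 10 for meningeal fibroblasts. They were 6 of 10 for oligodendrocyte precursors, 6 of 14 for astrocytes and 2 of 13 for oligodendrocytes (Mbp and Cnp, gained). The share over all genes in that fit is not given beside these counts. Gpnmb (0.45, adjusted p = 0.158) and Ms4a7 (-0.37, adjusted p = 0.208) no longer passed. In Het with lithium 1 endothelial gene was called lower, and no gene of the other lists passed, where 0.983% of all genes did.

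**Figure D5:**
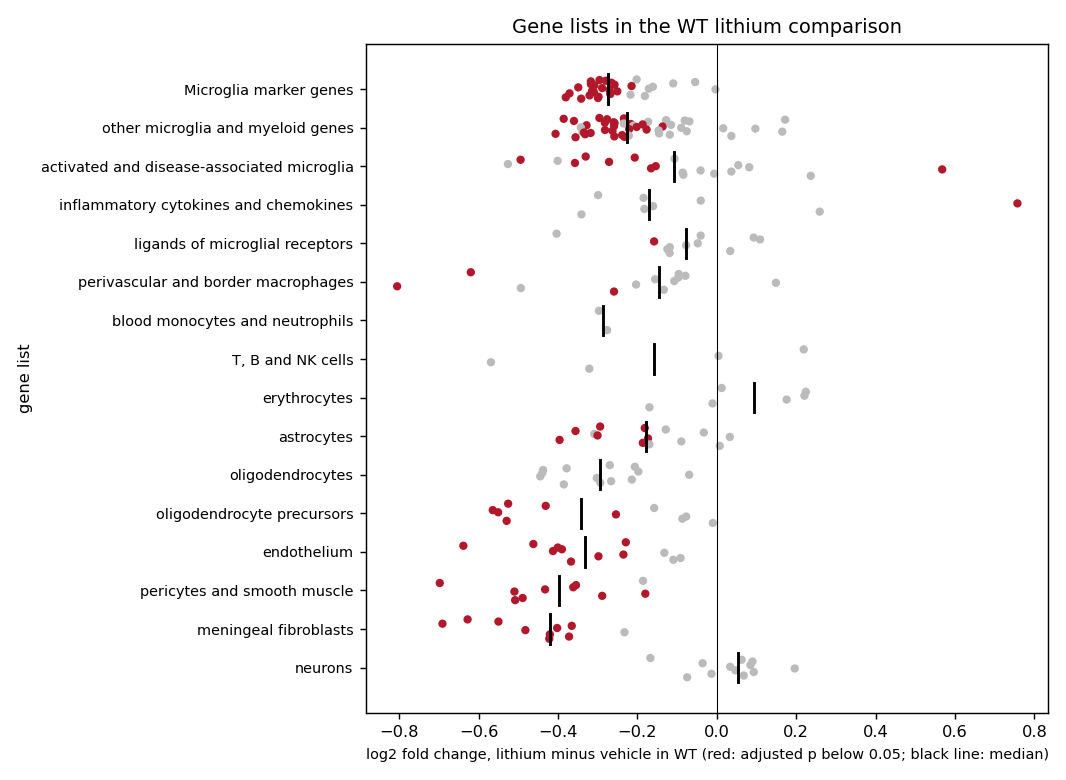
Log2 fold change of lithium minus vehicle in WT (horizontal axis) for each gene of the lists of microglial, myeloid and other cell types (rows); red points have an adjusted p below 0.05 and black lines are medians. The markers (median -0.27) lie left of 0 together with most other non-neuronal lists, and the neuronal genes lie around 0.05.

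With fluoxetine the other myeloid genes are given beside the shares over all genes. In WT 1 of the 46 was higher (the phagocytic receptor Mertk, 0.18) and 3 were lower (Syk -0.42, Arhgap30 -0.26, Dock8 -0.30), where 4.35% of all genes were higher and 4.08% lower, while Tlr4 (-0.51) and Nlrp3 (-0.45) of the cytokine list were lower and Il1b (0.70) was higher. In Het 5 of the 46 were higher (Mertk 0.28, Mef2c 0.28, Tlr7 0.34, Cd84 0.34 among them) and 10 were lower (Tgfb1 -0.48, Csf2ra -0.29, Unc93b1 -0.27, Abi3 -0.36 among them), where 19.1% of all genes were higher and 19.9% lower. Of the 12 border macrophage genes, Lyve1 (0.64), Cd163 (0.69) and F13a1 (0.44) were higher in Het with fluoxetine and Stab1 (-0.235) was lower. The limit given above for the Het fluoxetine libraries applies to these values too.

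Exons of some members overlap those of neighbouring genes in the annotation. Csf1r shares 873 exon bases with Hmgxb3, Ltc4s 268 with Gm26542, Cx3cr1 78 with Gm33858 and P2ry12 9 with Med12l, all on the opposite strand, and Itgam shares 3450 with the gene model Gm49368 on the same strand. The sources used here do not say if counting was by strand, so reads of these members may be split or shared.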

How the data were processed

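The mRNA libraries came from a kit that keeps the strand, per the labels' protocols. The submitters' processing notes name GRCm38, Salmon 0.11.2, R 3.6.0 and DESeq2 1.19.11 but give no roles; annotation and strand setting are not given in the sources used here. Deposited values are a non-negative signal for each gene, made by the authors by dividing reads by 1 factor per library: values were whole multiples of a step per column, and dividing by it gave whole reads for 100% of values, within 0.001. They are called normalised read counts here. Of 18088 identifiers 18077 were found in GENCODE M21, which gave symbols and coordinates.

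Genes that reached 10 in 5 or more libraries (17810) were fitted with limma 3.58.1 (R 4.3.3, trend and robust settings) on log2(value + 1), as 12 group means over 60 libraries with 48 residual degrees of freedom. Contrasts were averaged over the sexes, and p-values were adjusted by the Benjamini-Hochberg method over all genes, with calls below 0.05. Fold changes use that log2(value + 1) scale and so understate the change of genes with few reads. The planned design covered both raw and normalised units, and as these are normalised, limma served as the test and edgeR as an alternative.

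The members, lists, rules and alternatives were chosen with earlier results of these data known. All called members are named where at most 12 were called, otherwise at least the 6 with the smallest p, and the 3 with the smallest p where none was; Aif1, Csf1r, C1qa, P2ry12, Tmem119, Trem2 and Spi1 are always given for main contrasts, and of other lists at most 4 called genes per direction. Other members were named after their values were seen.

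Alternatives were TMM scaling factors, no filter, a pseudocount of 5, the compared groups alone, the replicate number as a block, a GC correction (loess, span 0.3) alone and with the block, edgeR 4.0.16 on the recovered reads, 3 libraries left out (also within each sex and for the other lists, chosen after seeing the data), terms for libraries low in pseudogenes or with no Rps6-ps4 read, the motif GAGGAA, and each library left out. The model was tested on simulated data.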

Additional observations from a re-analysis of the deposited data

Results flagged for a closer look

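In each group of 5 libraries of one genotype, treatment and sex, the highest and lowest library were compared with the rest for each marker and for the summed level. Of 372 such tests 34 showed a library far from the others. Chance alone gives about 1 in 20 for a single test. The tests of a group share the same 5 libraries and are not independent, so the total cannot be set against that rate. Het vehicle female 3 and WT fluoxetine female 5 gave 10 of the 34 each.

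Most of these libraries were high. Het vehicle female 3 had a summed level of 22969, against 18948 in the next library of its group, and stood above the rest for C1qc (1273), Csf1r (3499), P2ry13 (348), Tyrobp (412), Fcer1g (221), Tmem119 (798), Ctss (1903), Hpgds (294) and Ltc4s (103). WT fluoxetine female 5 had a summed level of 23207, against 18706 in the next library, and stood above the rest for C1qa (1281), C1qb (1284), C1qc (1297), Cx3cr1 (1686), Fcer1g (221), Cd33 (374), Cd53 (285), Ctss (1912) and Irf8 (183). WT lithium male 2 was the highest of its group in summed level (17311, next 15393) and for Itgam (623).

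Single markers stood out elsewhere. In Het fluoxetine, C1qa (845) and C1qb (791) were low in female 1, P2ry13 (374) and Fcrls (1125) were high in female 4 and Cd33 (316) was high in male 4. Selplg was low in Het lithium female 3 (601) and in WT lithium male 5 (419). Laptm5 was high in WT fluoxetine male 3 (1167) and Fcgr3 in WT lithium female 5 (381), the library that was lowest of all for 15 other markers. In WT vehicle females, P2ry13 was high in replicate 4 (365), Fcer1g was high in replicate 1 (186) and Ly86 was low in replicate 5 (179).

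A difference between groups in the change under a drug passed limma's test of the interaction in 4 cases. Laptm5 (-0.23, adjusted p = 0.0233) and Cd53 (0.34, adjusted p = 0.0396) passed for fluoxetine in Het against WT. In that test 24% of all genes passed. Cd53 (-0.65, adjusted p = 0.0246) and Gpr34 (-0.63, adjusted p = 0.0425) passed for lithium in WT females against WT males, where 9.64% of all genes did. In neither test did the members' share exceed that background. All 4 cases were lost with the GC correction. Those for lithium were also lost without the 3 libraries left out above, together or singly.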

How the results depend on the processing

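The count of 22 lower markers for lithium in WT was 24 with TMM scaling factors, 22 without a filter, with a pseudocount of 5, with the GC correction and with the Rps6-ps4 term, 21 with edgeR and with the pseudogene term, 18 without the 3 libraries and 13 in a fit to the WT groups alone. It was 17 to 25 when each library was left out. The shares over all genes in these fits are not given beside the counts. With the GC correction 19 of the 22 calls were kept, and Fcer1g, Spi1 and Ltc4s were lost.

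The 10 calls of Het against WT in fluoxetine became 2 with the GC correction, alone or with the replicate block, and 0 with the pseudogene term and with the Rps6-ps4 term. Each of these terms covers 9 of the 10 Het fluoxetine libraries, so losses under them in fluoxetine comparisons are no separate check. The 10 calls became 12 in the groups alone and 12 without the 3 libraries, with P2ry12 and Cd68 gained in both. Leaving out each library gave 8 to 12. The 5 calls of fluoxetine in Het became 3 with the GC correction, alone or with the block, and 0 with either term (4 to 5 with each library left out). The 2 calls of the genotype by fluoxetine interaction became 4 in the groups alone (Trem2 and Spi1 gained), 3 without the 3 libraries (Spi1 gained) and 0 with the GC correction, with it and the block, and with either term (1 to 3 with each library left out). With edgeR there were 2, Laptm5 and Spi1 in place of Cd53. The 2 sex interactions became 1 with the replicate block, which lost Gpr34, and 0 in the groups alone, with the GC correction, with it and the block, without the 3 libraries and with either term (0 to 3). Fluoxetine in WT called 1 marker, Olfml3, without the 3 libraries, against 0 (0 to 1). Het against WT in lithium and the genotype by lithium interaction gave 0 to 1 with each library left out. For Het against WT in vehicle, lithium in Het and female against male, each stayed at 0 calls in every alternative run.

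Under the GC correction C1qa turned from -0.01 to 0.19 for fluoxetine in Het, also with the block, and under the pseudogene term Gpr34 turned from 0.27 to -0.0158 for Het against WT in fluoxetine. The cause of these changes was not tested.

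The replicate number as a block kept 22 calls for lithium in WT, 10 for Het against WT in fluoxetine and 5 for fluoxetine in Het. The numbers did not pair the samples: deviations of same-numbered libraries of different groups had a mean correlation of 5.4e-05, 54 of 330 such pairs were over 0.1, and 8 of 60 libraries correlated best with their own number. The SEs of the member fold changes, 0.05 to 0.11 for lithium in WT, limit which log2 differences could be resolved.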
